A study of Mus musculus with 3 samples.

Results

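The NF-κB subunits and the IκB proteins that hold or modify them were followed on every probe set and every array of a study of mouse dendritic cells (DCs). The members were Nfkb2, Relb, Rel, Rela, Nfkbia, Nfkbib, Nfkbie, Nfkbiz and Bcl3. They comprised 9 of the 10 genes chosen and were read by 18 of 38533 probe sets, each assigned to exactly 1 gene by the probe annotation. A probe set is a group of short oligonucleotides on an Affymetrix array that reads 1 transcript or a few related ones. Nfkb1 is not analysed here. The genes fell into alternative subunits (2 genes, 3 probe sets), canonical subunits and cytoplasmic inhibitors (5 genes, 11 probe sets) and nuclear IκB proteins (2 genes, 4 probe sets).

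Wild-type bone marrow was grown over 5 days with GM-CSF (granulocyte-macrophage colony-stimulating factor), a cytokine that drives marrow precursors to form DCs, and the cells were sorted on PDL2, a ligand of the T cell receptor PD-1. The groups were PDL2-positive cells left untreated, PDL2-negative cells given 100 ng/ml lipopolysaccharide (LPS, which activates Toll-like receptor 4), and untreated PDL2-negative cells. With 1 array per group, differences have no replicate check, nothing could be tested, and sizes alone are given. Strain, age, sex and the duration of LPS treatment are not given in the sources used here.

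In the canonical pathway, receptors such as Toll-like receptor 4 activate the IKK complex, which marks IκB proteins for destruction and so frees dimers of RelA, c-Rel and p50 to enter the nucleus. In the alternative pathway, receptors such as CD40, RANK and the lymphotoxin β receptor stabilise the kinase NIK, which drives the processing of p100 to p52 and the nuclear entry of RelB with p52. Several of the genes for subunits and IκB proteins are themselves NF-κB targets. An mRNA level measures neither the protein nor its entry into the nucleus. In DCs, RelB is known for its role in the development and maturation of some subsets.

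Values are log2 signals after quantile normalization of the deposited log2 values. The floor, below which a signal was not counted as measured, was the median of all values, 5.58. Of the 18 member probe sets, 17 lay above it on all 3 arrays. Higher and lower mean a difference of 2-fold or more where genes are counted, and each gene is represented by its brightest probe set. The only error available is technical: the log2 differences given by the brightest and next brightest probe set of a gene differed from each other with a robust SD of 0.41 in the LPS comparison (4212 genes), 0.29 in the PDL2 comparison (4243 genes) and 0.44 between PDL2-positive and LPS-treated cells (4121 genes).

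Pdcd1lg2, which encodes PDL2, followed the sort at 11.73 in PDL2-positive cells, 9.44 after LPS and 8.40 in untreated PDL2-negative cells. All 7 DC markers listed were above the floor on every array, but some of them also moved between arrays. Against untreated PDL2-negative cells, PDL2-positive cells were higher for Ccr7, a migration receptor (6.26 on the log2 scale), Zbtb46, a DC transcription factor (2.37), and Flt3, a DC growth factor receptor (1.89), and lower for Itgax, which encodes CD11c (-1.67). After LPS 1 of the 7 was higher (Ccr7, 4.63) and 0 lower. The log2 of the summed signal of the 7 was 15.73 in PDL2-positive, 15.52 in LPS-treated and 15.44 in untreated PDL2-negative cells. Cd74 read 14.33 on all 3 arrays, and H2-Ab1 13.84, 14.18 and 14.29 in the same order. The sums rest largely on these bright genes and say little about DC content. Markers of macrophages and monocytes were lower in PDL2-positive cells. Of all genes, 10.1% were higher and 13% lower in PDL2-positive than in untreated PDL2-negative cells, and 9.17% and 13.8% after LPS. For macrophages, 8 of 8 were lower than in untreated PDL2-negative cells, and the log2 of their summed signal was 11.77 in PDL2-positive, 15.46 in LPS-treated and 15.85 in untreated PDL2-negative cells. For monocytes 4 of 4 were lower, with summed signals of 9.25, 14.14 and 12.99. Of 5 neutrophil markers 0 were past 2-fold in that comparison, and 3 were lower after LPS, with summed signals of 13.88, 12.72 and 13.91. Cd79a, Ms4a1, Cd3g, Ncr1 and Cd2, which mark lymphocytes, were below the floor on all 3 arrays, and the other listed lymphocyte markers on the array, Cd79b, Pax5 and Cd3e, reached at most 6.29. The part of these shifts in cell content in the differences below was not tested, and in such bulk samples fewer cells of a type and less RNA per cell cannot be told apart.

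The promoters of 4 members are shown because a match to the κB consensus, the DNA element that NF-κB dimers bind, lay in the 150 bases before the gene's start. The sequences are from RefSeq (GRCm38.p6), read 5′ to 3′ on the gene's strand, with the matches in capitals. The Nfkb2 stretch, from the first of its 3 windows in the table, is chr19:46304587-46304736 (plus strand), that of Rel chr11:23770970-23771119 (minus strand), that of Nfkbia chr12:55492648-55492797 (minus strand) and that of Nfkbie chr17:45555550-45555699 (plus strand).
Nfkb2: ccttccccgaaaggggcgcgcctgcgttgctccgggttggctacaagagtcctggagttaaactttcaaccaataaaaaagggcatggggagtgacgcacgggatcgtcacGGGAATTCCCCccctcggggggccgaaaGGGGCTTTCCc
Rel: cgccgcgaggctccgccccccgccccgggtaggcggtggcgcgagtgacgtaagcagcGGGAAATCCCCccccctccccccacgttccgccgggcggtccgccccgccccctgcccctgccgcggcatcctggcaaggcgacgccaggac
Nfkbia: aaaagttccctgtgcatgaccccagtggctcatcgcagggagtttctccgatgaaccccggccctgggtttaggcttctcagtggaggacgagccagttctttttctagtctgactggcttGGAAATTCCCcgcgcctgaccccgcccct
Nfkbie: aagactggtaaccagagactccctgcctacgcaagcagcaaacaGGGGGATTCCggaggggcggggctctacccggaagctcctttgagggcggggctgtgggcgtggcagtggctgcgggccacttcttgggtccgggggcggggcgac
The 10-base κB consensus was searched on both strands of windows from 250 bases before to 50 bases after each start. Overlapping matches on the 2 strands form the longer runs in Nfkb2 and Rel. Matches ran from -39 to -29 and from -11 to -2 in Nfkb2, from -92 to -82 in Rel, from -29 to -20 in Nfkbia and from -106 to -97 in Nfkbie, counted from the start. The other 2 windows of Nfkb2 held matches as well. The promoter table held windows for 7 of the members, not for Relb and Nfkbiz, and 5 of these 7 genes had a match. The fifth was Bcl3, with its match from 2 to 11 past the start. Over all genes with a window, 5.14% had a match (1388 of 27025). Rela and Nfkbib had no match in these windows. A match is not a measured binding site, and sequence outside the windows was not searched.

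**Figure D1:**
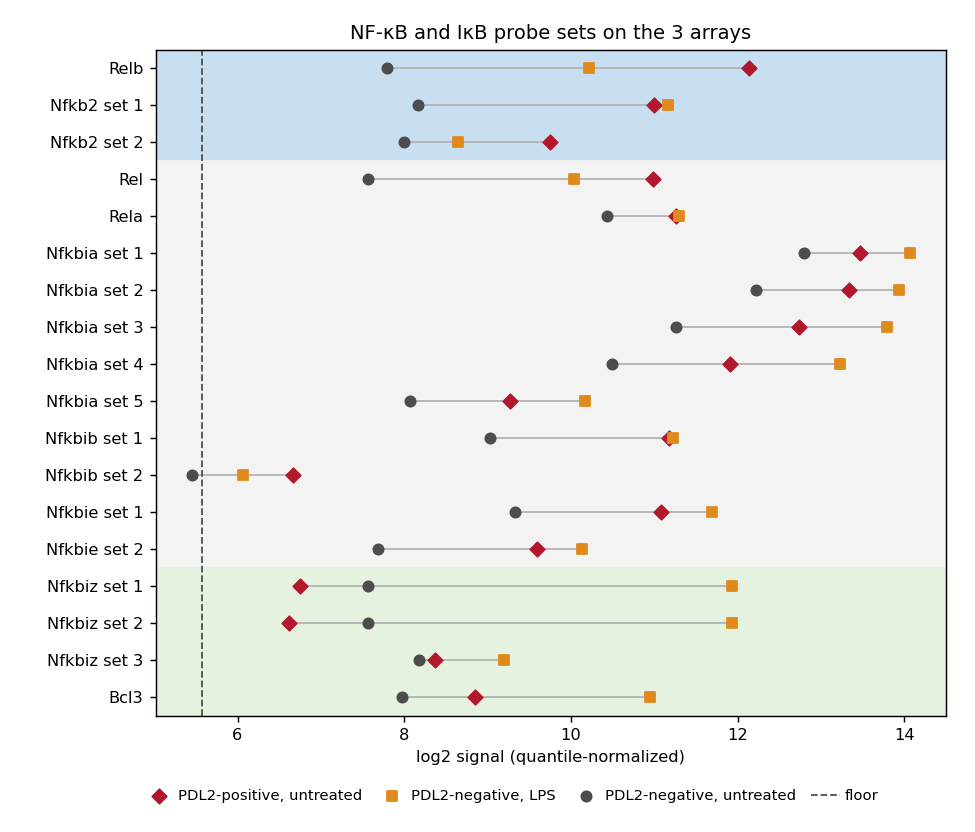
Log2 signal (x axis, quantile-normalized) of the 18 probe sets (rows) on the 3 arrays, with 1 point per array and a dashed line at the floor of 5.58. Blue shading marks alternative subunits, grey the canonical subunits and cytoplasmic IκB proteins, and green the nuclear IκB proteins. Of the 3 arrays, that of PDL2-positive cells reads highest for Relb, at 12.13, and that of LPS-treated cells for Nfkbiz, at 11.93.

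The alternative subunits were high in PDL2-positive cells and also after LPS. The margin was smaller after LPS for Relb, while the probe sets of Nfkb2 differed on the size of the LPS increase. Relb, the subunit that pairs with p52, had a log2 signal of 12.13 in PDL2-positive cells, 10.22 in LPS-treated cells and 7.79 in untreated PDL2-negative cells. It was therefore 20.2-fold higher in PDL2-positive than in untreated PDL2-negative cells, 5.36-fold higher after LPS, and 3.77-fold higher in PDL2-positive than in LPS-treated cells. Among 10926 genes above the floor in the PDL2 comparison, Relb ranked 55 by the size of its increase. After LPS it ranked 315 of 11000. Relb was read by 1 probe set, so its values have no second reading.

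Nfkb2 encodes p100, which acts both as an inhibitor of RelB and as the precursor of p52. Its brightest probe set (1425902_a_at) read 11.00 in PDL2-positive cells, 11.17 after LPS and 8.17 in untreated PDL2-negative cells. By this probe set Nfkb2 was 7.10-fold higher in PDL2-positive cells and 7.98-fold higher after LPS, and the PDL2-positive and LPS arrays differed by -0.17, less than the probe set spread. A second probe set (1429128_x_at) read 9.75, 8.64 and 8.0 on the same arrays in that order. It was past 2-fold in PDL2-positive cells (3.37-fold) and not after LPS (1.56-fold), and it set PDL2-positive cells 2.16-fold above LPS-treated cells. Both probe sets of Nfkb2 therefore put PDL2-positive cells above untreated PDL2-negative cells, but by log2 differences of 2.83 and 1.75, further apart than the probe set spread of 0.29. After LPS they differed more, at 3.0 and 0.64. In the array maker's naming, a name ending in _x_at marks probes that may also match other transcripts.

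Rel, which encodes c-Rel, a canonical subunit of lymphoid and myeloid cells, came closest to Relb in the PDL2 comparison. Its log2 signal was 10.99 in PDL2-positive cells, 10.03 after LPS and 7.56 in untreated PDL2-negative cells. It was 10.8-fold higher in PDL2-positive cells and 5.54-fold higher after LPS, and lay 1.94-fold higher in PDL2-positive than in LPS-treated cells, short of 2-fold. Rela, which encodes the widely expressed subunit p65, varied least. Its signal was 11.26 in PDL2-positive cells, 11.29 after LPS and 10.43 in untreated PDL2-negative cells, 1.78-fold and 1.81-fold above the untreated PDL2-negative level. Both Rela differences lay short of 2-fold and above the spread between probe sets, and the PDL2-positive and LPS arrays differed by -0.03. Rel and Rela were each read by 1 probe set.

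**Figure D2:**
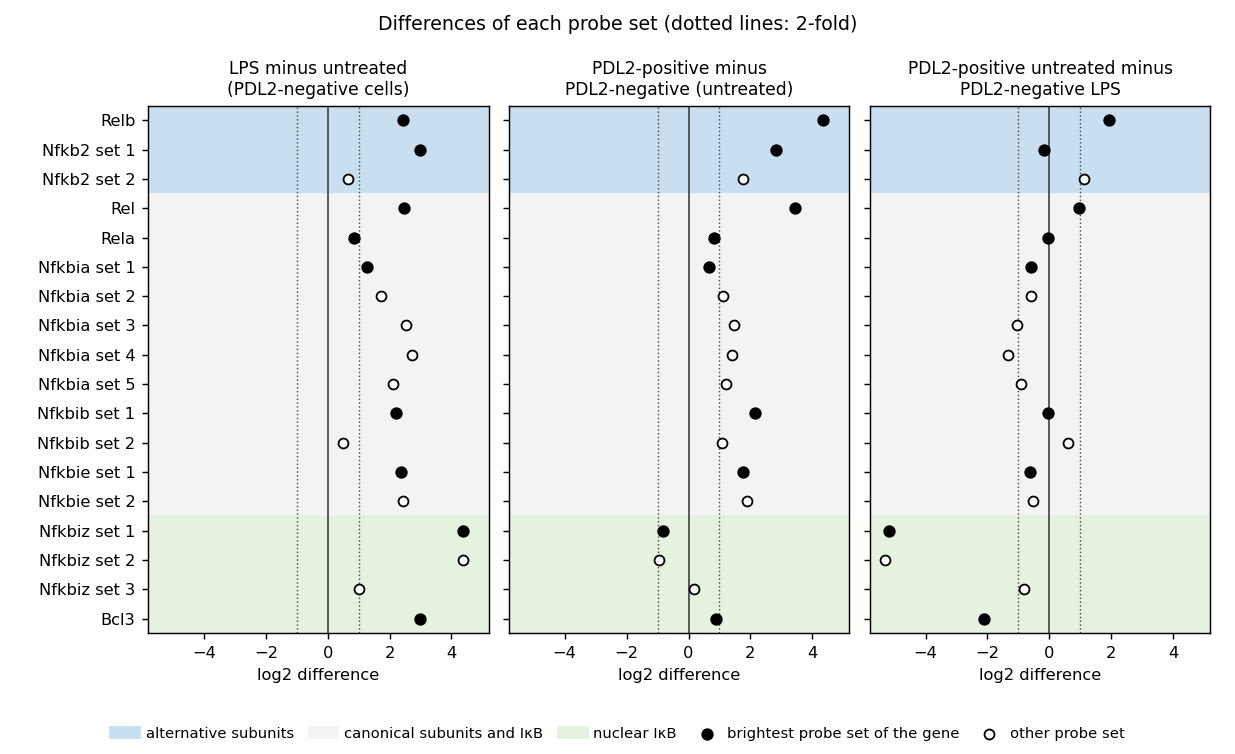
Log2 difference (x axis) of each of the 18 probe sets (rows) in the 3 comparisons, with filled points for the brightest probe set of a gene, open points for the others and dotted lines at 2-fold. All 18 points lie right of 0 in the LPS comparison, and where PDL2-positive are set against LPS-treated cells they run from -5.32 for Nfkbiz to 1.92 for Relb.

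The cytoplasmic inhibitors IκBα, IκBβ and IκBε hold canonical dimers in the cytoplasm, and their genes were higher after LPS by 2.41-fold to 5.17-fold. Nfkbia, the gene for IκBα and a classic feedback target of NF-κB, was read by 5 probe sets. The brightest (1420088_at) read 13.46 in PDL2-positive cells, 14.07 after LPS and 12.80 in untreated PDL2-negative cells, all near the top of the scale. It gave a log2 difference of 1.27 after LPS and 0.67 in PDL2-positive cells.

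The other 4 Nfkbia probe sets gave larger differences, from 1.72 to 2.73 after LPS and from 1.11 to 1.47 in PDL2-positive cells. For example, 1449731_s_at read 11.90 in PDL2-positive cells, 13.23 after LPS and 10.49 in untreated PDL2-negative cells. All 5 were at least 2-fold higher after LPS, as were 10.4% of all probe sets, and 4 of 5 in PDL2-positive cells, as were 10.7%. In both comparisons the brightest probe set, which represents the gene, changed least. All 5 also read lower in PDL2-positive than in LPS-treated cells, from -1.32 to -0.60, and 2 of them were past 2-fold, as were 12.5% of all probe sets in that direction.

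Nfkbib, which encodes IκBβ, read 11.18 in PDL2-positive cells, 11.23 after LPS and 9.03 in untreated PDL2-negative cells by its brighter probe set (1421266_s_at). It was 4.42-fold higher in PDL2-positive cells and 4.57-fold higher after LPS. The other probe set (1446718_at) read 6.66, 6.07 and 5.45 in that order, the last below the floor. Its log2 difference was at least 1.08 in PDL2-positive cells and at least 0.49 after LPS. Nfkbib thus rested on the first of these for its size, and the direction was the same in both.

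Nfkbie, the gene for IκBε, had a pair of probe sets that differed little in either comparison. By 1458299_s_at it read 11.08 in PDL2-positive cells, 11.70 after LPS and 9.33 in untreated PDL2-negative cells, and by 1431843_a_at 9.59, 10.13 and 7.69. The folds were 3.38 and 3.74 in PDL2-positive cells and 5.17 and 5.45 after LPS. Both probe sets placed the LPS array highest, with differences of -0.61 and -0.54 for PDL2-positive against LPS-treated cells.

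The nuclear IκB proteins act on bound NF-κB dimers as cofactors rather than as cytoplasmic inhibitors, and both genes were lower in PDL2-positive than in LPS-treated cells. Nfkbiz encodes IκBζ, which is needed for secondary response genes such as Il6. Its probe set 1417483_at read 6.74 in PDL2-positive cells, 11.93 after LPS and 7.57 in untreated PDL2-negative cells. It was 20.6-fold higher after LPS (rank 76 of 11000 genes), 1.77-fold lower in PDL2-positive cells, and 36.4-fold lower in PDL2-positive than in LPS-treated cells. In the last comparison it ranked 88 from the bottom of 11042 genes.

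A second Nfkbiz probe set (1448728_a_at), annotated to the same transcript record and holding the same deposited value of 7.66 on the untreated PDL2-negative array, read 6.62, 11.93 and 7.57. This pair is therefore not known to be 2 independent readings. The third (1457404_at) read 8.37 in PDL2-positive cells, 9.20 after LPS and 8.18 in untreated PDL2-negative cells, with a log2 difference of 1.02 after LPS and 0.19 in PDL2-positive cells. All 3 were past 2-fold after LPS, and in the PDL2 comparison they differed in sign.

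Bcl3, whose product binds p50 and p52 homodimers and can activate or repress with them, read 8.85 in PDL2-positive cells, 10.95 after LPS and 7.97 in untreated PDL2-negative cells. It was 7.89-fold higher after LPS, 1.84-fold higher in PDL2-positive cells and 4.28-fold lower in PDL2-positive than in LPS-treated cells. Bcl3 and Nfkbiz thus both stood highest on the LPS array, with differences to the PDL2-positive array above the probe set spread of 0.44 on every probe set. Bcl3 had 1 probe set.

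Across the members, LPS gave a broad increase. After LPS 8 of 9 genes were at least 2-fold higher and 0 lower, against 9.17% of all genes higher and 13.8% lower. At 1.5-fold 9 were higher and 0 lower, against 15.1% and 24.6% of all genes. The member median was 2.42 on the log2 scale, against 0.02 over all 11000 genes above the floor. By probe set, 15 of 18 were higher, against 10.4% of all probe sets, and the other 3 ran from 0.49 to 0.86. Nfkbiz led at 4.36, followed by Nfkb2 (3.0) and Bcl3 (2.98), which differed by less than the probe set spread. Rel, Relb, Nfkbie and Nfkbib followed between 2.47 and 2.19, with each gap between neighbours inside that spread. Nfkbia and Rela were last, but the place of Nfkbia rests on its brightest probe set (1.27): it was 2.07 with the mean over probe sets, above Nfkb2 (1.82) and Nfkbib (1.41), and 2.73 with the probe set of largest range. The 5 genes with a κB match in their promoter windows were among the 8 higher after LPS, as was Nfkbib, which had none. With 8 of 9 members higher, this overlap cannot tell genes with a match from those without.

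In PDL2-positive cells, 5 of 9 genes were at least 2-fold higher than in untreated PDL2-negative cells and 0 were lower, against 10.1% and 13% of all genes. At 1.5-fold 8 were higher and 1 lower, against 17.7% and 20.4% of all genes. The 5 past 2-fold were Relb, Rel, Nfkb2, Nfkbib and Nfkbie, in that order by their brightest probe sets. The order of the last 2 turned with the mean over probe sets (Nfkbie 1.83, Nfkbib 1.68) and with probe sets named _x_at or _s_at left out (1.90 and at least 1.08). Bcl3, Rela and Nfkbia lay between 0.67 and 0.88, and Nfkbiz was at -0.83. The member median was 1.76, against 0.01 over all genes. By probe set, 12 of 18 were higher, against 10.7% of all probe sets.

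Between PDL2-positive and LPS-treated cells, 1 member was at least 2-fold higher (Relb) and 2 were lower (Nfkbiz and Bcl3), against 15.6% and 12.6% of all genes. At 1.5-fold 2 were higher and 4 lower, against 25.1% and 18.5% of all genes. The 2-fold counts of genes were close to those of genes at large, and the member median was -0.17, against -0.05 over all genes. By probe set, 2 of 18 were at least 2-fold higher and 5 lower, against 15.2% and 12.5% of all probe sets. Rela, Nfkbib and the brightest probe set of Nfkb2 lay within 0.17 of 0, while the second probe sets of Nfkb2 and Nfkbib gave 1.11 and 0.59. Each comparison shares an array with each of the others, so the 3 sets of differences are not independent.

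**Figure D3:**
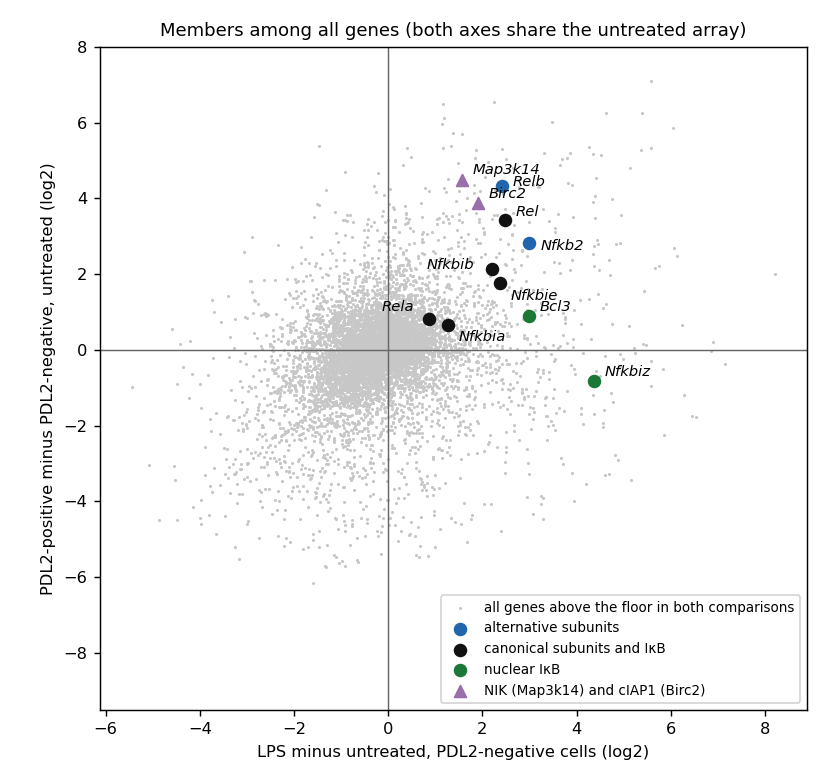
Log2 difference after LPS (x axis) and in PDL2-positive cells (y axis) for each gene by its brightest probe set, with grey points for all genes above the floor in both comparisons and larger points for the members, Map3k14 and Birc2. Both axes share the untreated PDL2-negative array. Relb lies at 2.42 and 4.34, and Nfkbiz at 4.36 and -0.83.

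Set by arm, the alternative subunits had a median log2 difference of 3.58 in PDL2-positive cells (Nfkb2 2.83, Relb 4.34), and the 5 canonical genes a median of 1.76, ranging from 0.67 to 3.43. After LPS the medians were 2.71 and 2.19, with canonical genes from 0.86 to 2.47. The alternative median exceeded the canonical one by 1.83 in the PDL2 comparison and by 0.52 in the LPS comparison. Between PDL2-positive and LPS-treated cells the margin was 0.93. With the mean over probe sets the LPS margin was 0.050, and without probe sets named _x_at or _s_at, a setting chosen after seeing the data, it was 1.44. The arms overlapped, since Rel at 3.43 lay above Nfkb2 at 2.83. The canonical arm pools subunits with inhibitors, while the alternative arm holds subunits only. The canonical subunits Rel and Rela alone had medians of 2.13 in PDL2-positive cells and 1.66 after LPS. The 3 cytoplasmic inhibitors had medians of 1.76 and 2.19, so the margins depend on which canonical genes are pooled. All are medians over 2 to 5 genes, given as a description without a test. The nuclear IκB proteins had a median of 0.03 in PDL2-positive cells and 3.67 after LPS.

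The genes of the pathway around the members were read through lists of kinases, receptors, inhibitors and targets. Among 11 IKK and upstream kinase genes on the array, in PDL2-positive cells 1 was higher and 1 lower (median 0.26), and after LPS 5 were higher and 0 lower (median 0.83). The counts in PDL2-positive cells are no more than the 10.1% and 13% of all genes, and those after LPS stand beside 9.17% and 13.8%. The higher gene in PDL2-positive cells was Map3k14, which encodes NIK, the kinase of the alternative pathway. Its log2 signal was 11.46 in PDL2-positive cells, 8.53 after LPS and 6.97 in untreated PDL2-negative cells, a 22.4-fold difference in PDL2-positive cells and a 2.94-fold difference after LPS. A second Map3k14 probe set gave a log2 difference of 2.94 in PDL2-positive cells and 0.92 after LPS. The lower gene was Ikbke, which encodes the IKK-related kinase IKKε, at 6.42 in PDL2-positive cells, 11.00 after LPS and 8.85 in untreated PDL2-negative cells.

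After LPS the largest difference among the kinases was in Map3k8, which encodes the kinase TPL2 that p105 holds inactive. It read 8.49 in PDL2-positive cells, 10.94 after LPS and 7.55 in untreated PDL2-negative cells, 10.4-fold higher after LPS. Ikbkg, the gene for the canonical scaffold NEMO, was 5.04-fold higher after LPS and at 0.51 in PDL2-positive cells, although its probe sets ran from 0.68 to 2.70 after LPS. Ikbkb, the gene for IKKβ, differed by 0.83 after LPS and 0.87 in PDL2-positive cells, with its 4 probe sets from 0.41 to 1.66 and from 0.18 to 0.96. Chuk and Traf3 are not analysed here.

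Of 8 genes for alternative pathway receptors and adaptors, in PDL2-positive cells 5 were higher and 0 lower (median 1.34), and likewise 5 and 0 after LPS (median 1.39), beside the same shares of all genes. Birc2, which encodes cIAP1, a ubiquitin ligase in the complex that degrades NIK in resting cells, read 12.05 in PDL2-positive cells, 10.08 after LPS and 8.18 in untreated PDL2-negative cells. That was 14.6-fold higher in PDL2-positive cells and 3.74-fold higher after LPS. Tnfrsf11a, the gene for RANK, read 9.60, 7.82 and 7.06 in the same order and was 5.81-fold higher in PDL2-positive cells.

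Cd40 stood highest on the LPS array, at 9.74 in PDL2-positive cells, 13.39 after LPS and 7.26 in untreated PDL2-negative cells. Traf2, which encodes an adaptor that recruits the cIAP ligases, was 5.39-fold higher after LPS and 2.08-fold higher in PDL2-positive cells. Birc3, the gene for cIAP2, was 3.0-fold and 3.10-fold higher in those comparisons. Ltbr, the gene for the lymphotoxin β receptor, differed by -0.77 in PDL2-positive cells and -0.26 after LPS.

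**Figure D4:**
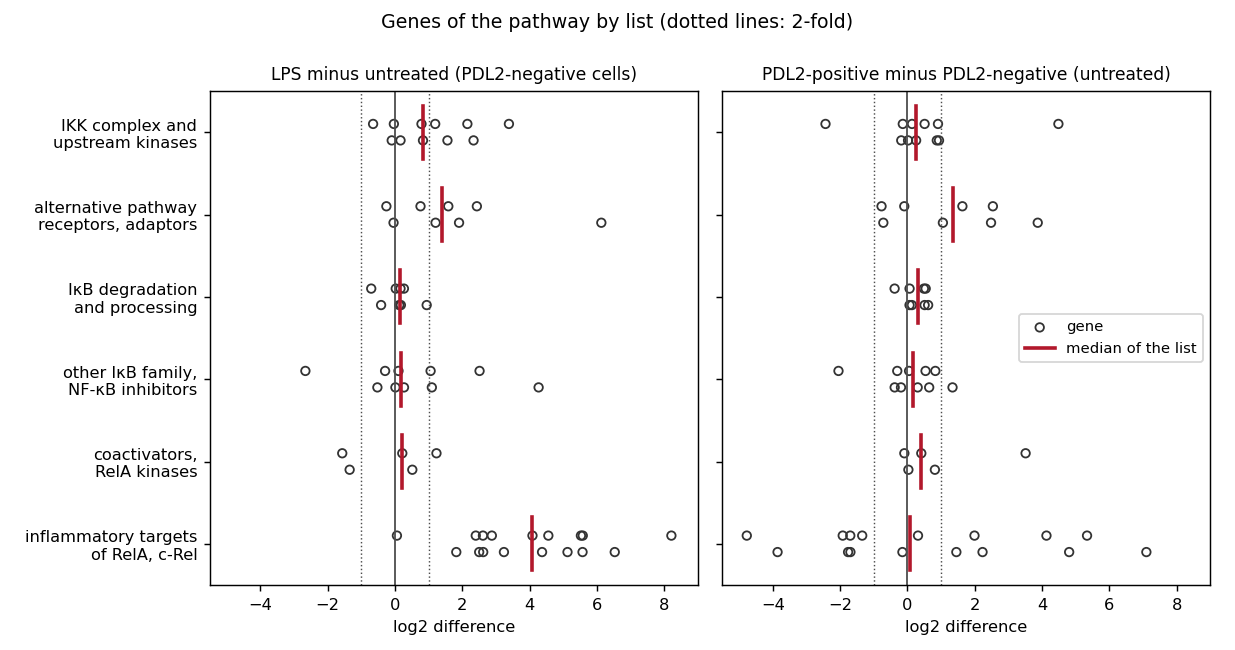
Log2 difference (x axis) of each gene above the floor, by pathway list (rows), after LPS on the left and in PDL2-positive cells on the right, with circles for genes, red bars for list medians and dotted lines at 2-fold. The inflammatory targets have a median of 4.08 after LPS and 0.08 in PDL2-positive cells.

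Of 8 genes for the ubiquitin ligase and proteasome subunits that degrade IκB or process p100, 0 passed 2-fold in either comparison by their brightest probe sets. Their medians were 0.31 in PDL2-positive cells and 0.14 after LPS. The shares of all genes past 2-fold upward and downward were 9.17% and 13.8% for LPS, and 10.1% and 13% for the PDL2 comparison. With only 8 genes, a count of 0 cannot set this list apart from genes at large. Other probe sets reached 1.95 for Fbxw11 after LPS and 1.19 for Psma1 in PDL2-positive cells. Among 10 genes for other IκB family members and NF-κB inhibitors, 1 was higher and 1 lower in PDL2-positive cells, and 4 were higher and 1 lower after LPS. In PDL2-positive cells these counts are about the 10.1% and 13% of all genes, and those after LPS stand beside 9.17% and 13.8%. Tnfaip3, which encodes the ubiquitin-editing inhibitor A20, read 10.93 in PDL2-positive cells, 13.86 after LPS and 9.59 in untreated PDL2-negative cells. Pdlim2, which encodes a nuclear ligase that degrades RelA, was lower in both, by -2.05 in PDL2-positive cells and -2.66 after LPS. Nfkbid, the gene for the nuclear protein IκBNS, differed by -0.19 in PDL2-positive cells and 1.09 after LPS. Among 5 genes for coactivators and RelA kinases, 1 was higher and 0 lower in PDL2-positive cells. After LPS 1 was higher and 2 were lower, and both pairs of counts stand beside the same shares of all genes. The higher gene in PDL2-positive cells was Rps6ka5, the gene for MSK1, at 11.4-fold. Its signals were 10.66 in PDL2-positive cells, 5.29 after LPS (below the floor) and 7.15 in untreated PDL2-negative cells. The 3 probe sets of Rps6ka5 gave log2 differences from 2.32 to 3.51 in PDL2-positive cells.

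Inflammatory genes known as targets of RelA and c-Rel differed between the comparisons. After LPS 16 of 17 above the floor were higher and 0 lower, with a median of 4.08. In PDL2-positive cells 7 of 16 were higher and 7 lower, with a median of 0.08. Of all genes, 9.17% were higher and 13.8% lower after LPS, and 10.1% and 13% in PDL2-positive cells. Some targets were higher in both: Ccl5 by 5.58 after LPS and 5.34 in PDL2-positive cells, and Traf1 by 5.12 and 4.81. Tnf read 6.41 in PDL2-positive cells, 12.48 after LPS and 8.11 in untreated PDL2-negative cells, while Cd83, a maturation marker, read 13.38, 11.06 and 9.24. Il12b, a c-Rel target in macrophages and DCs, read 12.68 in PDL2-positive cells, 11.15 after LPS and 5.18, below the floor, in untreated PDL2-negative cells. Il6 read 7.57, 13.79 and 4.13 in that order, the last below the floor. Of 5 targets of RelB and p52 known from lymphoid stroma that were on the array, 2 or fewer were above the floor in either comparison and 0 passed 2-fold.

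The genes whose pattern lay nearest to 3 of the members were found by the distance between their pairs of log2 differences to the untreated PDL2-negative array, over 9850 genes above the floor on all 3 arrays. Nearest to Relb were Klrk1 (distance 0.01), Rnaset2a (0.19), Socs2 (0.20), Sema7a (0.23) and Kdm4a (0.35). Nearest to Nfkbiz were Procr (0.18), Irf7 (0.36), Batf2 (0.44), Calhm6 (0.47) and Jdp2 (0.53). Nfkbia lay in a denser region, with Slc25a25 at 0.01 and Psmd10, Ube2f, Camsap1 and Zfp263 at 0.09 to 0.10. Only 2 differences over 3 arrays enter each distance.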

How the data were processed

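The deposited values, 1 for each probe set on each array, span a log2 range. How the authors corrected, normalized and summarised them is not given in the sources used. Leaving out control probe sets, 18.2% of probe sets held the same deposited value on all 3 arrays, among them 0 of the 18 member probe sets. After 13 control probe sets were left out of 38546, the 3 arrays were quantile-normalized, since their 75th percentiles ran from 7.68 to 7.90 before it. Of 34423 named probe sets, 33974 name 1 gene and 449 name several and were used for no gene; 33787 of those with 1 gene were matched to a RefSeq gene by number and took its current symbol. Signals below the floor were raised to it before a difference was taken, which makes a difference against such a signal a lower bound. A gene entered a comparison if above the floor on at least 1 of its 2 arrays. Calculations used Python 3.11.15, numpy 2.4.6 and pandas 2.3.3. The method was also run on simulated data, which cannot show how far arrays of the same group would vary.

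The number of arrays, 1 per group, limits the precision. Members, pathway lists, the naming rule and the size rule were chosen with earlier results of these data known. Named genes were every member, up to 6 genes per list and direction past 2-fold, and the kinases, receptors and adaptors NIK, TRAF2, TRAF3, cIAP1, cIAP2, IKKα, IKKβ and NEMO whatever their values. The rule also covered Pdcd1lg2 and the genes nearest in pattern to Relb, Nfkbiz and Nfkbia. Not every gene that it allowed is named, for example Cxcl2 and Ptgs2 among the inflammatory targets. Genes named beyond that (Ltbr, Fbxw11, Psma1 and the cell type markers) were chosen after their values were seen. Alternatives were no further normalization, median centring, a higher floor or none, other probe set choices and other size rules.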

Additional observations from a re-analysis of the deposited data

How the results depend on the processing

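Over 188 recomputed member differences (9 genes, 3 comparisons), 184 kept their side of 2-fold, 3 passed it and 1 no longer did. Of the 184, 181 also kept their sign. The exceptions, none called, were in PDL2-positive against LPS-treated cells: Nfkb2 (0.47) and Nfkbib (0.27) with the mean over probe sets, and Nfkbib (0.59) without probe sets named _x_at or _s_at. Nfkbia passed 2-fold in PDL2-positive cells with the mean over probe sets (1.17) or the probe set of largest range (1.41), and with the latter also against LPS-treated cells (-1.32). Without those probe sets, a setting chosen after seeing the data, Nfkbib differed by at least 0.49 after LPS, and the margin of the alternative over the canonical median was 1.44 after LPS and 2.50 in PDL2-positive cells. The LPS margin was 0.050 with the mean over probe sets, as given above. At 1.5-fold, 8 members were higher and 1 lower in PDL2-positive than in untreated PDL2-negative cells (5 and 0 at 2-fold), against 17.7% and 20.4% of all genes, and 2 higher and 4 lower than in LPS-treated cells (1 and 2 at 2-fold), against 25.1% and 18.5%. With no further normalization the median LPS difference over genes measured on both arrays was -0.08, against 0.04 after quantile normalization, and no member changed its call. No paired analysis was possible because each group has 1 array. Signals near the top of the scale, as for Nfkbia, may understate differences, which was not tested.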
